A study of Mus musculus with 14 samples.

Results

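Mice that meet a larger aggressor day after day divide into susceptible animals, which afterwards avoid other mice, and resilient animals, which do not. The comparison described here sets 6 susceptible arrays against 3 resilient arrays, 9 of the 14 arrays of the study, chosen by the behavioural class in their titles. All of these mice were wild-type C57BL/6 animals put through repeated social defeat stress, and tissue of the medial prefrontal cortex was taken with a 1.5 mm punch 4 h after the last session, following perfusion. Each array was hybridised with 35 ng of RNA from a single mouse, so the replicates are animals. The remaining 5 arrays come from naive wild-type C57BL/6 mice that were only transferred between cages. They are used below only to show where a level lies without defeat, because they all occupy another row of the slides. The sources used here do not give the ages, the behavioural scores or which mouse belonged to which of the study's independent experiments.

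The medial prefrontal cortex is a frontal cortical area that regulates emotional and social behaviour. Repeated defeat activates the adrenal glucocorticoid axis and the release of myeloid cells into blood, and both reach the brain. The products of S100a8 and S100a9 pair as calprotectin, a protein abundant in neutrophils and monocytes that signals through Toll-like receptors. Glucocorticoid target genes such as Fkbp5 and immediate early genes such as Fos and Junb are the usual transcript readouts of the hormonal and neuronal response to stress.

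Levels are log2 processed signal minus the 75th percentile of the same array, so 1 unit is a 2-fold difference. Differences are susceptible minus resilient from a limma fit with slide as a block, and errors are standard errors (SE) of that fit unless stated. Mean array brightness, taken as the 75th percentile of log2 signal, was 8.09 ± 0.59 (SD, n = 6) on susceptible and 7.91 ± 0.12 (SD, n = 3) on resilient arrays (exact two-sided permutation test, p = 0.702). The share of spots well above background was 58.6% against 59.1% (exact two-sided permutation test, p = 0.881). With each slide's mean removed, the group means differed by -0.11 (exact permutation test within slides, p = 0.278) and -1.51 percentage points (same test, p = 0.444). The 18 splits within slides cannot give a p below 0.0556. The arrays of slide 3, which held no resilient mouse, average out there and dilute both differences. Slide 1 held susceptible mice 1 and 2 with resilient mice 1 and 2, and slide 2 held susceptible mice 3 and 4 with resilient mouse 3. Slide 3 held susceptible mice 5 and 6 and no resilient mouse, so it informs the spread and not the difference. All 9 arrays lay in row 2, but on slides 1 and 2 the resilient arrays lay in columns 1 and 3 and the susceptible arrays in columns 2 and 4, so odd or even column and behavioural class cannot be told apart there.

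No gene passed the test between susceptible and resilient mice. Of 14423 genes tested, 0 (0%) had an adjusted p under 0.05 by limma with Benjamini-Hochberg adjustment, and the smallest adjusted p was 0.999. At an unadjusted p under 0.05 there were 379 genes (2.63%), 174 higher (1.21%) and 205 lower (1.42%) in susceptible mice, where 721 would be counted if p-values were uniform. A difference of 2-fold or more was estimated for 19 genes (0.132%), 4 of them higher (0.0277%) and 15 lower (0.104%). All values below are therefore descriptions of single genes and families whose differences did not pass the test. The genes given below with an unadjusted p had an adjusted p of 0.999 in this fit.

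**Figure D1:**
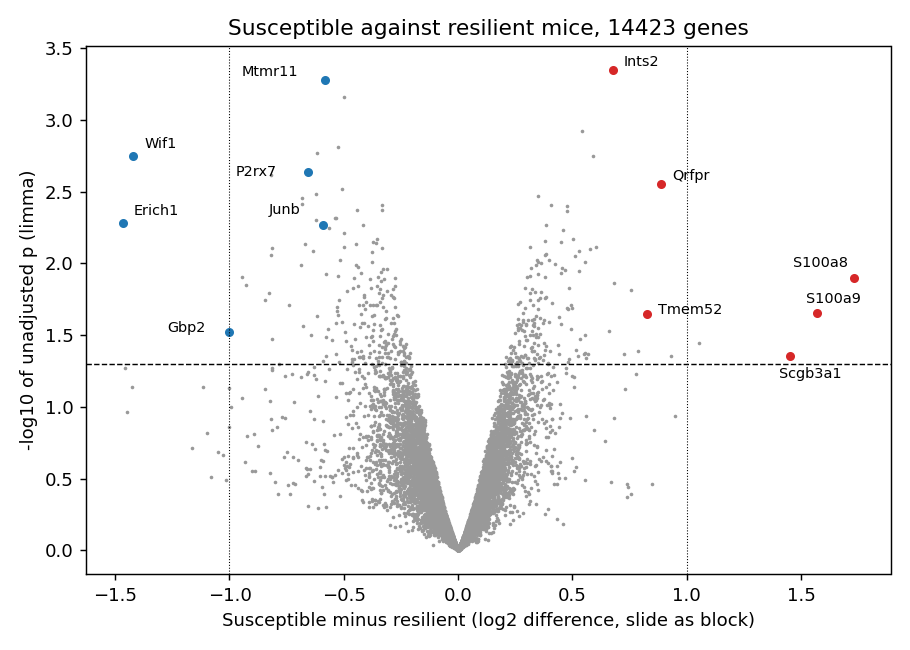
Each point is 1 of 14423 genes, placed by its log2 difference (susceptible minus resilient, slide as a block) on the horizontal axis and by -log10 of its unadjusted limma p on the vertical axis. The dashed line marks an unadjusted p of 0.05 and the dotted lines mark 2-fold differences. The calprotectin genes S100a8 and S100a9 lie farthest to the right at 1.73 and 1.57, and Erich1 lies farthest to the left at -1.47.

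The arrays limited the size of most possible differences. The median 95% interval reached 0.28 log2 units to either side of the estimate, a factor of 1.21, and ranged from 0.21 at the 5th to 0.57 at the 95th percentile of genes. For 14027 genes (97.3%) the whole interval lay within a 2-fold difference either way, and for 12332 genes (85.5%) it lay within a 1.5-fold difference. Smaller differences were not resolved by 9 arrays, and a gene outside these counts may differ by more.

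The calprotectin genes had the highest estimates of all genes tested. S100a8 stood at -0.30, 0.54, -0.61, -3.25, -1.33 and -2.17 in susceptible mice 1 to 6 and at -1.53, -2.28 and -3.23 in resilient mice 1 to 3. Susceptible mice 1, 2, 3 and 5 were above every resilient mouse, while susceptible mouse 4 lay beside resilient mouse 3 at the bottom, so the groups overlapped. The difference was 1.73 ± 0.56, with a 95% interval from 0.47 to 2.99 (limma, unadjusted p = 0.0126). It was 2.02 within slide 1 and 1.29 within slide 2. The S100a8 probe was well above background on 5 of 6 susceptible and 3 of 3 resilient arrays. In naive mice S100a8 was not well above background on any array, with signals from -6.23 to -4.72, below those of both defeated groups. The lowest defeated values, -3.25 and -3.23, lay near the detection limits of the naive arrays on slides 1 and 2. On those naive arrays the lowest signals well above background were -3.08, -3.30 and -2.86.

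S100a9, the partner chain, gave a similar order of mice. Its levels were 1.34, 2.31, 1.31, -1.47, 0.46 and -0.17 in susceptible mice 1 to 6. In resilient mice 1 to 3 they were 0.49, -0.30 and -1.42. Susceptible mice 1, 2 and 3 exceeded every resilient mouse, and susceptible mouse 4 was the lowest of all 9. The difference was 1.57 ± 0.57, with a 95% interval from 0.28 to 2.86 (limma, unadjusted p = 0.0223). Without susceptible mouse 4 the differences became 2.22 for S100a8 and 2.06 for S100a9, and without susceptible mouse 3 they became 1.34 and 1.13.

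Few other neutrophil transcripts could be measured. Of 11 neutrophil markers on the array, Mmp8, Mmp9 and Cxcr2 were detected on 0 of the 9 arrays and 4 could be tested. Camp, an antimicrobial peptide of neutrophil granules, differed by 0.23 and Elane, neutrophil elastase, by 0.19, neither with an unadjusted p under 0.05. Retnlg, Mpo, Ngp and Ltf were detected on part of the arrays and were not tested. The mean level of the 4 tested markers ranged from -1.15 to 0.80 in susceptible and from -1.22 to -0.26 in resilient mice. S100a8 and S100a9 are among these 4, so this level is not a separate reading of neutrophils. Markers of red blood cells also varied between mice, with mean levels from -0.96 to 1.68 in susceptible and from -1.17 to 1.11 in resilient mice. With the erythroid level as a covariate the S100a8 difference was 1.58, and with the meningeal marker level it was 1.61. In bulk tissue, fewer cells of a type and less RNA per cell cannot be told apart.

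The sequences around the transcript starts of both calprotectin genes are shown because these genes had the largest differences and ordered the mice alike. They come from RefSeq (assembly GRCm38.p6) and cover 250 bases before to 50 bases after the start, 5′ to 3′ on the strand of the gene. S100a8 lies on the plus strand at chr3:90668821-90669120 and S100a9 on the minus strand at chr3:90695672-90695971. Capitals mark the TATAAA motif.
S100a8: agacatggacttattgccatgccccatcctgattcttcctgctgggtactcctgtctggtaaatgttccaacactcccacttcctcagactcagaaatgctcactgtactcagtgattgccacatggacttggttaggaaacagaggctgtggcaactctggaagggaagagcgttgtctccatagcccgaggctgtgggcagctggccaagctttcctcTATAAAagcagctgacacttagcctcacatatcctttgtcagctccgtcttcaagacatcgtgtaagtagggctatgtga
S100a9: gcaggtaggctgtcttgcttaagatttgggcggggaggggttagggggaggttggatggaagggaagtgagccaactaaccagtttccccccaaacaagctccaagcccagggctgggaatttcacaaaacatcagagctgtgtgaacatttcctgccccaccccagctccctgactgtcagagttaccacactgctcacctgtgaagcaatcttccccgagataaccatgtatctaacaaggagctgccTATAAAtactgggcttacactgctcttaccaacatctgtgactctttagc
Both windows held TATAAA once, starting at base 221 of the S100a8 window and at base 251 of the S100a9 window, and 13.6% of 32851 promoter windows of that length held it on either strand. The S100a8 match thus lay before the annotated start, while the S100a9 match began at the annotated start and not before it. Both strands were also searched for the C/EBP motif TTNCGNAA (2.47% of windows) and the glucocorticoid half-site AGAACA (19.0%), and neither was found in either window. These are matches of letters and not measurements of binding.

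Scgb3a1, a small secreted protein of epithelia, stood at 0.22, 1.27, -0.47, -2.64, -0.63 and 0.40 in susceptible mice 1 to 6 and at -0.86, -2.14 and -1.81 in resilient mice 1 to 3. Susceptible mouse 4 was the lowest of the 9 here too, and the other 5 exceeded every resilient mouse. The difference was 1.45 ± 0.62 (95% interval 0.04 to 2.86, limma, unadjusted p = 0.0444), but it was 2.24 within slide 1, 0.26 within slide 2 and 0.93 without resilient mouse 2. Tmem52, a transmembrane protein, stood at -1.87, -1.61, -1.97, -1.85, -1.64 and -2.88 in susceptible and at -2.30, -2.01 and -3.36 in resilient mice. Susceptible mice 1 to 5 lay within a narrow band above the resilient mice, and susceptible mouse 6 lay among them. The fitted difference was 0.83, being 0.41 within slide 1, which is also the value without resilient mouse 3, and 1.44 within slide 2. The Tmem52 probe was well above background on 2 of 3 resilient arrays and entered the test through the susceptible arrays, where it is higher.

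**Figure D2:**
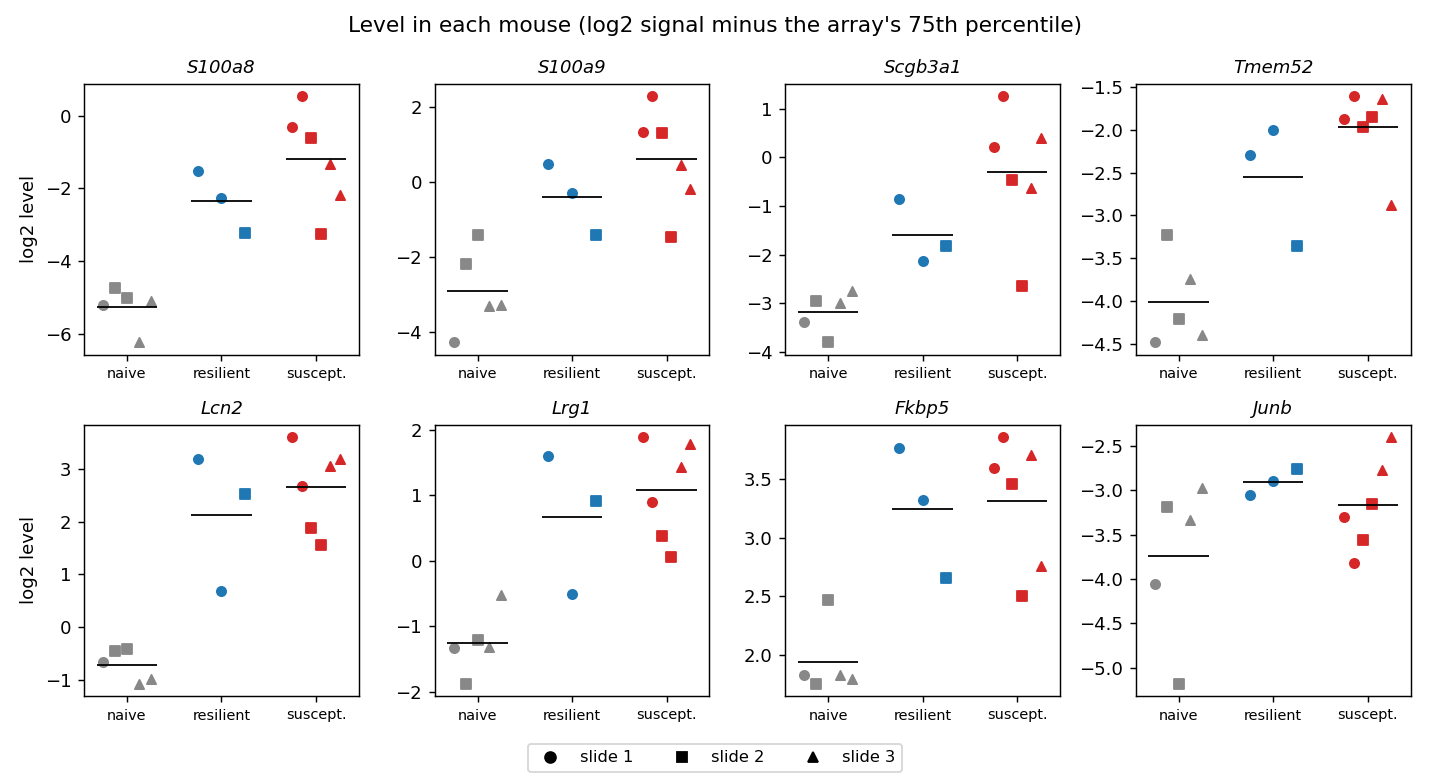
Log2 level of 8 genes in every mouse, with naive mice in grey, resilient mice in blue and susceptible mice in red; the symbol gives the slide and the line the group mean. Above every resilient mouse lie 4 susceptible mice for S100a8 and 3 for S100a9, susceptible mouse 4 lies at the bottom of the defeated mice, and the groups interleave for Lcn2, Lrg1 and Fkbp5.

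Acute-phase genes varied widely within each group. Lcn2, a siderophore-binding protein induced in inflammation, stood at 3.59, 2.66, 1.88, 1.55, 3.06 and 3.19 in susceptible mice 1 to 6 and at 3.19, 0.69 and 2.51 in resilient mice 1 to 3. Resilient mouse 2 was the lowest, and the other 2 resilient mice lay inside the susceptible range. The difference was 0.39 ± 0.59 (95% interval -0.93 to 1.72), being 1.19 within slide 1 and -0.80 within slide 2. Lrg1, a secreted glycoprotein that modifies TGF-beta signalling in vessels, followed the same pattern, with 1.89, 0.90, 0.38, 0.06, 1.42 and 1.79 against 1.60, -0.51 and 0.92. Its difference was 0.23 ± 0.50, and -0.45 without resilient mouse 2. The Lcn2 interval admits a 2-fold difference in favour of the susceptible mice and nearly that in the other direction. Without susceptible mouse 1 the Lcn2 difference was -0.04, and without resilient mouse 2 it was -0.43.

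Of 12 acute-phase genes 9 were tested, 5 higher and 4 lower in susceptible mice, with a median difference of 0.15 against -0.01 over all genes. The median was 0.38 on slide 1 and -0.53 on slide 2. Hp, which encodes the haemoglobin-binding protein haptoglobin, was the member with an unadjusted p under 0.05 (0.56 ± 0.24, limma, unadjusted p = 0.0458), and its difference was 0.34 without resilient mouse 2 and 0.85 without resilient mouse 3. Il4ra, a cytokine receptor chain, differed by 0.17 ± 0.13. Only 3 of the 9 intervals lay within 2-fold, beside 97.3% of all genes.

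Toll-like receptors and their adaptors, which include the receptors calprotectin binds, gave 13 tested of 22 genes. S100a8 and S100a9 belong to this list and were its only members with an unadjusted p under 0.05. The list median was -0.01, and 6 members were higher and 7 lower. Tlr2, a receptor for lipoproteins, was well above background on 4 of 6 susceptible and 2 of 3 resilient arrays and Tlr4, the lipopolysaccharide receptor, on 3 of 6 and 2 of 3, so neither was tested. Tlr2 signals ran from -3.66 to -2.28 in susceptible and from -3.33 to -2.56 in resilient mice. Tlr4 signals ran from -4.78 to -3.04 and from -3.77 to -3.20. The ranges overlapped for both receptors. Il1a, Il1b, Il6 and Tnf, which encode inflammatory cytokines, were well above background on 0 of the 9 arrays, and differences in them could not be measured.

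Cytokines, chemokines and their receptors had 16 of 31 members tested, 4 higher and 12 lower, with a median of -0.05 and 0 members at an unadjusted p under 0.05. On slide 1, 10 of the 16 were higher (median 0.02), and on slide 2, 13 were lower (median -0.16). Il6st, the signal-transducing receptor chain of the interleukin 6 family, differed by -0.23 ± 0.17 and Csf1, the macrophage growth factor, by -0.19 ± 0.15. NF-kB subunits and regulators split evenly, 7 higher and 7 lower of 14 tested, with a median of 0.00. Nfkb2, a subunit, differed by -0.18 ± 0.15. Nfkbie, an NF-kB inhibitor, had a fitted difference of -0.38, and of -0.23 without susceptible mouse 1 and -0.72 without resilient mouse 3. Its probe was not well above background on all 9 arrays and entered the test through 1 group only.

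Glucocorticoid-induced genes were all measurable and did not separate the groups. Of 25 tested, 18 were higher and 7 lower, none with an unadjusted p under 0.05, and the median was 0.06. Fkbp5, a co-chaperone that restrains the glucocorticoid receptor, stood at 3.59, 3.86, 3.46, 2.50, 3.71 and 2.76 in susceptible mice and at 3.77, 3.32 and 2.65 in resilient mice. Each group held mice near the top and near the bottom of the range. The Fkbp5 difference was 0.24 ± 0.28 (95% interval -0.38 to 0.86). Nr3c1, which encodes the glucocorticoid receptor itself, ranged from 3.01 to 3.52 in susceptible and from 2.98 to 3.38 in resilient mice and differed by -0.06 ± 0.13. Its interval, -0.35 to 0.23, lay within 1.5-fold. Mt1 and Mt2, metallothioneins that respond to glucocorticoids and metals, differed by 0.19 ± 0.12 and 0.20 ± 0.14. Mean levels of the 25 genes ran from 2.36 to 3.14 in susceptible, from 2.55 to 3.12 in resilient and from 1.92 to 2.35 in naive mice.

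The other stress-hormone genes, corticosteroid receptors with CRH and opioid peptides, had 12 of 16 members tested, 5 higher and 7 lower. Their median was -0.04 and all 12 intervals lay within 2-fold. Crhr2, a CRH and urocortin receptor, differed by 0.21 ± 0.10 and Pnoc, the precursor of nociceptin, by -0.22 ± 0.12. None of the list had an unadjusted p under 0.05.

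Immediate early genes had the lowest median of the 31 families, -0.22. Of 26 tested (30 on the list) 20 were lower and 6 higher in susceptible mice, beside 46.3% of all genes higher, and 1 had an unadjusted p under 0.05. That gene was Junb, an AP-1 transcription factor subunit, at -3.30, -3.82, -3.56, -3.15, -2.77 and -2.40 in susceptible and -3.05, -2.89 and -2.76 in resilient mice. On slides 1 and 2 every susceptible mouse was below the resilient mice, while susceptible mice 5 and 6 on slide 3 lay within or above the resilient range. The fitted difference was -0.59, but the probe was well above background on 4 of 6 susceptible arrays and entered the test through the resilient arrays, where it is higher. Fos, the partner of the Jun proteins, differed by -0.35 ± 0.21, and Nptx2, a synaptic pentraxin induced by activity, by -0.44 ± 0.21. Fos moved to -0.19 without susceptible mouse 3 and Nptx2 to -0.26 without resilient mouse 1. Arc, a synaptic immediate early gene, ranged from 2.66 to 3.76 in susceptible and from 2.68 to 3.35 in resilient mice and differed by -0.04 ± 0.19. Mean levels of the family ran from 0.46 to 0.78 in susceptible and from 0.55 to 0.84 in resilient mice, and overlapped. The median was -0.14 on slide 1 and -0.21 on slide 2, and leaving out susceptible mouse 3 moved it to -0.07. With the meningeal level as a covariate it was -0.15.

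Interferon response genes had a lower median in susceptible mice on slide 2 and not on slide 1. Of 23 tested (28 on the list) 20 were lower and 3 higher, the median was -0.19, and 3 had an unadjusted p under 0.05. Within slide 1, 15 of the 23 were higher and the median was 0.08. Within slide 2, which compared 2 susceptible mice with resilient mouse 3 alone, 20 were lower and the median was -0.62. Gbp2, an interferon-induced GTPase, stood at -2.14, -2.81, -2.02, -2.38, -2.02 and -0.29 in susceptible and at -1.69, -2.04 and -0.62 in resilient mice. Its difference was -1.00 ± 0.39 (limma, unadjusted p = 0.0299), and susceptible mouse 6 had the highest level of the 9. Ifit2, an interferon-induced antiviral protein, differed by -0.34 ± 0.12 (limma, unadjusted p = 0.0186) and was lower on both slides. Igtp, another interferon-induced GTPase, differed by -0.46. Mean levels of the family were -0.86, -1.24, -0.89, -0.74, -0.87 and -0.11 in susceptible mice 1 to 6 and -0.97, -1.16 and -0.18 in resilient mice 1 to 3, so susceptible mouse 6 and resilient mouse 3 stood apart from the rest. The same 2 mice had the highest meningeal marker levels of the 9, at 1.48 and 1.67. Susceptible mouse 1 had the next highest meningeal level, but its interferon mean of -0.86 lay within the range of the rest. With the meningeal level as a covariate the family median was -0.08 and the Gbp2 difference -0.81, and without resilient mouse 3 they were 0.08 and -0.62.

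Genes of MHC class I and the immunoproteasome followed the interferon genes by slide. Of 14 tested 3 were higher and 11 lower, with a median of -0.13, of 0.07 within slide 1 and -0.42 within slide 2. With the meningeal level as a covariate the median was -0.02. None had an unadjusted p under 0.05, and all 14 intervals lay within 2-fold. Tapbp, which loads peptide onto MHC class I, differed by -0.20 ± 0.14, and H2-Q4, a class I chain, by -0.29 ± 0.21.

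**Figure D3:**
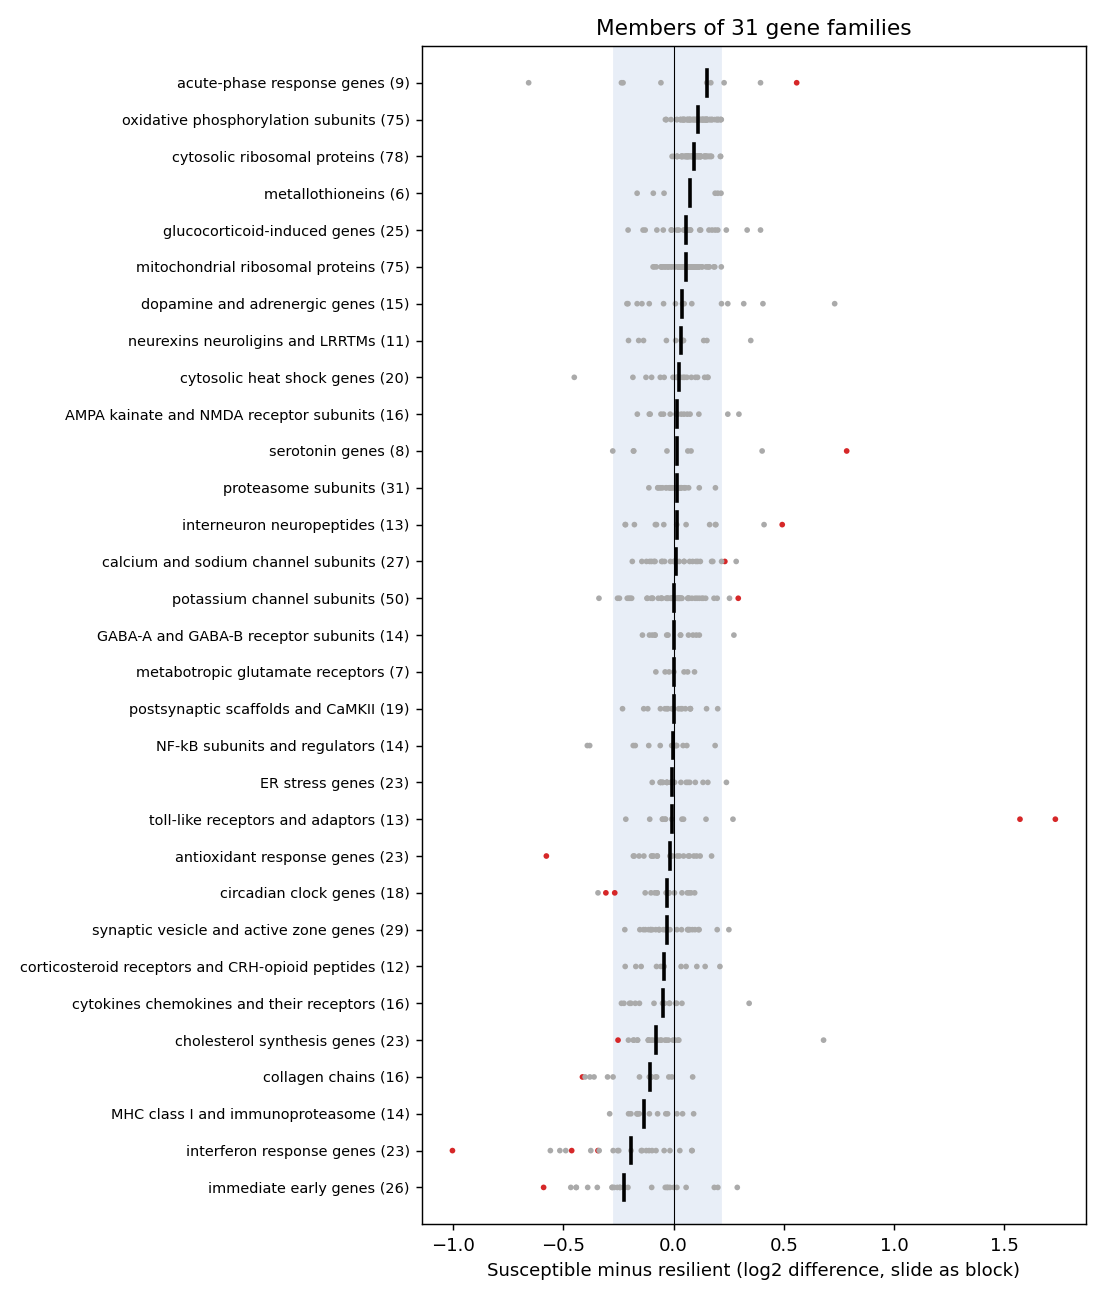
Differences (log2, susceptible minus resilient) of the tested members of 31 gene families, 1 point per gene and the number tested in brackets; black bars mark medians, red points an unadjusted limma p under 0.05, and the shaded band spans the 5th to 95th percentile of all genes, -0.27 to 0.21. Family medians run from -0.22 for immediate early genes to 0.15 for acute-phase genes, and most members lie within the band.

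Transmitter receptors gave few large values. Of 8 tested serotonin genes (14 on the list) 4 were higher and 4 lower, with a median of 0.02. Htr4, a Gs-coupled serotonin receptor, stood at -1.06, -1.14, -1.21, -1.98, -0.78 and -1.89 in susceptible and at -1.92, -1.13 and -2.92 in resilient mice. Resilient mouse 2 lay among the highest susceptible mice, and the difference was 0.78 ± 0.33 (95% interval 0.04 to 1.53, limma, unadjusted p = 0.0408). Without resilient mouse 3 it was 0.42. Htr2a, the main excitatory serotonin receptor of the cortex, ranged from 1.06 to 1.68 in susceptible and from 1.20 to 1.67 in resilient mice. It differed by 0.08 ± 0.16, with an interval from -0.29 to 0.44. Htr3a, an ion-channel serotonin receptor of interneurons, differed by -0.28 ± 0.14.

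Dopamine and adrenergic genes had 15 of 20 members tested, 9 higher and 6 lower, with a median of 0.04 and 0 at an unadjusted p under 0.05. Drd5, a D1-type dopamine receptor, had a fitted difference of 0.73 on a dim probe, with 0.14 within slide 1 and 1.61 within slide 2. That probe was not well above background on all 9 arrays and entered the test through 1 group only. Adra2a, the alpha-2A adrenergic receptor, differed by 0.41 ± 0.22, by 0.69 within slide 1 and by -0.02 within slide 2.

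Genes of excitatory synapses were bounded about as closely as genes at large. Over all genes, 97.3% of intervals lay within 2-fold and 85.5% within 1.5-fold. Of 16 tested AMPA, kainate and NMDA receptor subunits 10 were higher and 6 lower, with a median of 0.02. All 16 intervals lay within 2-fold and 14 within 1.5-fold. Grin3a, an NMDA receptor subunit, differed by -0.16 ± 0.11. The 7 metabotropic glutamate receptors tested had a median of 0.00, and all 7 intervals lay within 1.5-fold. Postsynaptic scaffolds and CaMKII had 19 members tested with a median of 0.00, and 18 intervals lay within 1.5-fold. Synaptic vesicle and active zone genes had 29 members tested, 12 higher and 17 lower, with a median of -0.03 and 25 intervals within 1.5-fold. Neurexins, neuroligins and LRRTMs, the adhesion proteins across the synapse, had 11 tested and a median of 0.03, with 9 intervals within 1.5-fold. None of these families had a member at an unadjusted p under 0.05, and every tested member had its interval within 2-fold.

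The 14 GABA-A and GABA-B receptor subunits were 7 higher and 7 lower with a median of 0.00. Within 1.5-fold lay 12 intervals, beside 85.5% of all genes. Interneuron neuropeptides and calcium-binding proteins had 13 tested, 7 higher and 6 lower, with a median of 0.01, and 5 intervals lay within 1.5-fold. Calb2, the calcium-binding protein calretinin, stood at -1.88, -2.14, -2.73, -2.31, -2.59 and -2.48 in susceptible and at -2.99, -2.66 and -2.53 in resilient mice, which overlapped. Its difference of 0.49 ± 0.19 (limma, unadjusted p = 0.0288) came from slide 1, at 0.82, with 0.01 within slide 2.

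Ion channel subunits were numerous and nearly centred on 0. Of 50 tested potassium channel subunits 25 were higher and 25 lower, and 46 intervals lay within 1.5-fold, beside 85.5% of all genes. Kcnt2, a sodium-activated potassium channel, was the member with an unadjusted p under 0.05, at 0.29 ± 0.10 (limma, unadjusted p = 0.0148). A dimmer probe of Kcnt2 gave 0.03. Of 27 calcium and sodium channel subunits 16 were higher and 11 lower, with a median of 0.01. Cacna1h, the T-type calcium channel Cav3.2, stood at 2.37, 2.44, 2.20, 2.21, 2.44 and 2.20 in susceptible and at 2.15, 2.18 and 1.98 in resilient mice. All 6 susceptible mice were above all 3 resilient mice, as 0.291% of genes were, and the difference was 0.23 ± 0.10 (limma, unadjusted p = 0.0375). These are values of the brightest Cacna1h probe, and a dimmer tested probe gave a difference of -0.03.

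Cytosolic ribosomal protein and respiratory chain genes were mostly higher in susceptible mice, by small amounts that did not pass the test. Of 78 cytosolic ribosomal proteins 77 were higher in susceptible mice, beside 46.3% of all genes, with a median of 0.09, and all 78 intervals lay within 1.5-fold. Of 75 nuclear-encoded subunits of oxidative phosphorylation 71 were higher, with a median of 0.11. Of 75 mitochondrial ribosomal proteins 61 were higher, with a median of 0.05. No member of the 3 families had an unadjusted p under 0.05. The mitochondrial ribosomal proteins were higher on slide 1 (67 of 75, median 0.12) and not on slide 2 (46 of 75 lower, median -0.05), while the medians of the other 2 families were above 0 on both slides. With the median of each array's detected probes subtracted, every difference moves down by the same amount, the median over all genes goes from -0.01 to -0.13, and the family medians go to -0.02, 0.00 and -0.06. Because the shift is the same for every gene, their place above the median of all genes is unchanged by construction. Mean levels of the cytosolic ribosomal proteins ran from 6.99 to 7.30 in susceptible and from 6.98 to 7.16 in resilient mice. On slide 1 susceptible mouse 1 stood at 6.99, beside resilient mouse 1 at 6.98 and below resilient mouse 2 at 7.10. Susceptible mouse 2 stood at 7.30, so the slide 1 difference rested on that mouse. On slide 2 susceptible mice 3 and 4 stood at 7.22 and 7.24 and resilient mouse 3 at 7.16. The members were read on the same mice, so their count is not a set of separate readings.

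Protein folding and turnover genes did not separate the groups. The medians were -0.01 for 23 ER stress genes, 0.03 for 20 cytosolic heat shock genes and 0.02 for 31 proteasome subunits. None of these 3 families had a member at an unadjusted p under 0.05, and all 31 proteasome intervals lay within 1.5-fold. Clock genes had a median of -0.03 over 18 tested. Dbp, a transcription factor driven by the clock, stood at 5.36, 5.30, 5.40, 5.62, 5.61 and 5.75 in susceptible and at 5.80, 5.41 and 5.87 in resilient mice. The groups overlapped across slides, and the difference was -0.31 ± 0.12 (limma, unadjusted p = 0.0309). Nr1d1, the clock repressor REV-ERB-alpha, differed by -0.27 ± 0.10 (limma, unadjusted p = 0.023).

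Metabolic and matrix genes completed the families. Cholesterol synthesis genes had 19 of 23 lower and a median of -0.08, with -0.17 within slide 1 and 0.07 within slide 2. Dhcr7, the last reductase of the pathway, differed by -0.25 ± 0.11 (limma, unadjusted p = 0.0408). Antioxidant genes had 14 of 23 lower and a median of -0.02, and Slc7a11, the cystine transporter, differed by -0.58 ± 0.25 (limma, unadjusted p = 0.044). Without resilient mouse 3 the Slc7a11 difference was -0.25, and without the slide block it was 0.05. The 6 metallothioneins were 3 higher and 3 lower. Collagen chains had 16 of 32 tested, of which 15 were lower, with a median of -0.11, of -0.02 within slide 1 and -0.46 within slide 2. Col11a2 differed by -0.41 ± 0.14 (limma, unadjusted p = 0.0171).

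Over the 31 families, 737 distinct genes were tested and 16 (2.17%) had an unadjusted p under 0.05, beside 2.63% of all genes. Of these 7 were higher and 9 lower in susceptible mice. The interval lay within 2-fold for 707 of the 737 and within 1.5-fold for 628. A difference of 2-fold or more was estimated for 3 of them, S100a8, S100a9 and Gbp2.

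**Figure D4:**
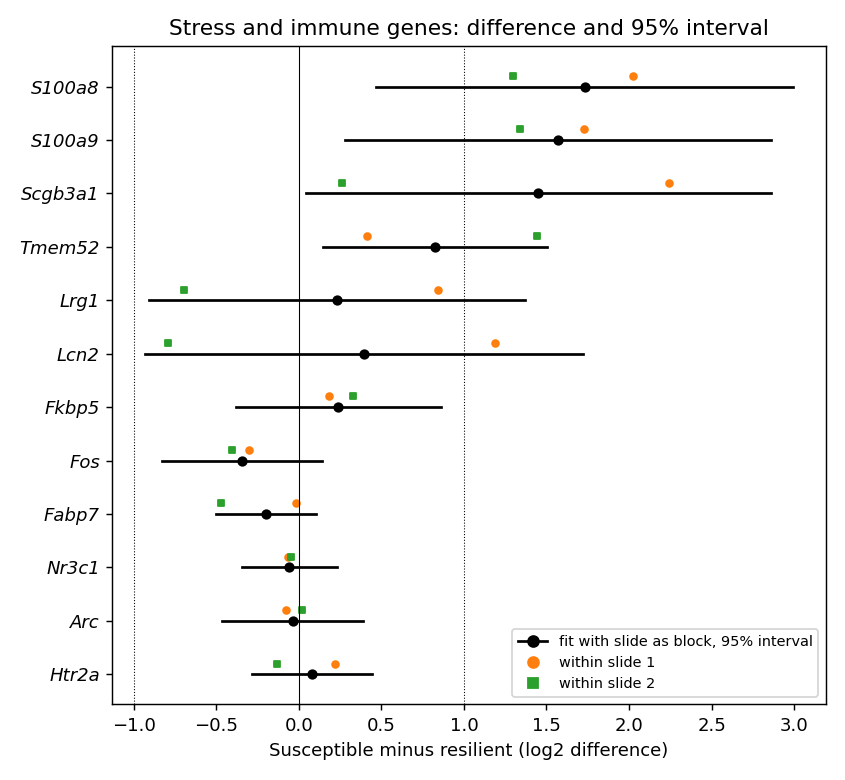
Log2 difference (susceptible minus resilient) of 12 stress and immune genes, with black points and lines for the fit with slide as a block and its 95% interval, orange circles for slide 1 and green squares for slide 2; dotted lines mark 2-fold. Intervals of Htr2a, Arc and Nr3c1 lie within 2-fold, that of S100a8 runs from 0.47 to 2.99, and for Lcn2 and Lrg1 the slides lie on opposite sides of 0.

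The genes with the smallest p-values were modest in size, and many were dim. Of the 14423 genes tested, 671 were not well above background on all 9 arrays and passed the filter through 1 group, 592 of them through the resilient arrays. Among the 10 smallest p-values in each direction this held for 3 genes higher and 6 lower in susceptible mice, each of which passed through the group where it is higher, so their rank is no support for a difference. Highest in rank among those higher in susceptible mice was Ints2, a subunit of the Integrator complex that processes small nuclear RNAs. It stood at -2.64, -2.86, -2.76, -3.01, -3.41 and -3.61 in susceptible and at -3.46, -3.65 and -3.37 in resilient mice, with 2 of 3 resilient arrays well above background. The mice of slides 1 and 2 were separated and those of slide 3 lay among the resilient mice. The fitted difference was 0.68. Cntrob, a centriole protein, stood at -2.45, -2.03, -2.32, -2.33, -1.85 and -1.97 against -2.85, -2.75 and -2.83. All 6 susceptible mice were above all 3 resilient mice, and the difference was 0.54 ± 0.12 (limma, unadjusted p = 0.0012). Qrfpr, a neuropeptide receptor, had a fitted difference of 0.89 with 2 of 3 resilient arrays well above background. Tenm3, a synaptic adhesion protein, differed by 0.48 ± 0.13 and Ano3, a membrane protein of the anoctamin family, by 0.35 ± 0.09. The other 5 of the 10 lowest p-values in this direction were 1700001G17Rik, Gm14440, Olfr406, Nox1 and Rtp1, with differences from 0.39 to 0.59.

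Among genes lower in susceptible mice, Mtmr11, a protein of the myotubularin family, ranked first with a fitted difference of -0.58. Its probe was well above background on 3 of 6 susceptible and 3 of 3 resilient arrays. P2rx7, an ATP-gated channel best known from microglia and oligodendrocyte lineage cells, stood at -0.97, -1.66, -1.35, -1.16, -0.69 and -0.67 in susceptible and at -0.63, -0.75 and -0.56 in resilient mice. Susceptible mice 5 and 6 came within the resilient range and the other 4 were below it, and the difference was -0.66 ± 0.16 (limma, unadjusted p = 0.0023). Hapln4, a link protein of perineuronal nets, differed by -0.53 ± 0.12. Wif1, a secreted Wnt inhibitor, stood at -4.23, -5.57, -4.26, -4.62, -3.68 and -3.79 against -3.51, -2.77 and -3.52. All 6 susceptible mice lay below all 3 resilient mice, as 0.284% of genes did. Its fitted difference was -1.42, but the probe was well above background on only 2 of 6 susceptible arrays and entered the test through the resilient arrays, where it is higher. The other 6 of the 10 were Bfsp1, Cyp2d12, Mamdc2, Fam186b, Skint10 and Ranbp3l, with differences from -0.82 to -0.50.

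The 15 genes estimated at 2-fold or more lower in susceptible mice rested largely on slide 2. On that slide 13 of them were 2-fold or more lower, on slide 1 2 were, and 0 were on both. Erich1, named after its values were seen, stood at -2.61, -2.61, -2.78, -3.02, -2.78 and -2.75 in susceptible and at -2.59, -0.85 and -0.58 in resilient mice. Resilient mice 2 and 3 were high and resilient mouse 1 lay close to the susceptible mice. Its difference was -1.47 ± 0.40 (limma, unadjusted p = 0.00518). Without resilient mouse 3 it was -0.89. Without resilient mouse 1 it was -2.04 and passed the test (limma, adjusted p = 0.00827), the 1 call made when single mice were left out. Of the 4 genes 2-fold or more higher, S100a8 and S100a9 were so on both slides, and Scgb3a1 and P2rx5, an ATP-gated channel, on 1.

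Defining markers of the labelled tissue were present in both groups. Of 12 excitatory neuron markers 11 were detected on all 9 arrays, as were 11 of 12 inhibitory neuron, 10 of 10 astrocyte and 12 of 12 microglia markers. Markers of tissue at the edge of the cortex were present too and varied between mice. Mean levels of the 8 tested meningeal fibroblast markers were 1.18, -1.00, -0.31, 0.60, 0.29 and 1.48 in susceptible mice 1 to 6 and 0.46, -0.83 and 1.67 in resilient mice 1 to 3. Both groups held high and low mice, and the median difference of the list was 0.25 within slide 1 and -1.33 within slide 2. Border macrophage markers gave 0.46 and -1.56, and erythroid markers 1.64 and -0.59. Oligodendrocyte markers gave -0.50 and 0.26. Astrocyte markers had a median of -0.07 with 9 of 10 lower. Within slide 1, 5 of the 10 were lower (median 0.00), and within slide 2, 9 were (median -0.16). Fabp7, a fatty acid binding protein of astrocytes and progenitors, differed by -0.20 ± 0.13, and by -0.02 without resilient mouse 3. Beyond the values given above with the meningeal or erythroid level as a covariate, the part of these cell types in the gene differences was not tested.

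**Figure D5:**
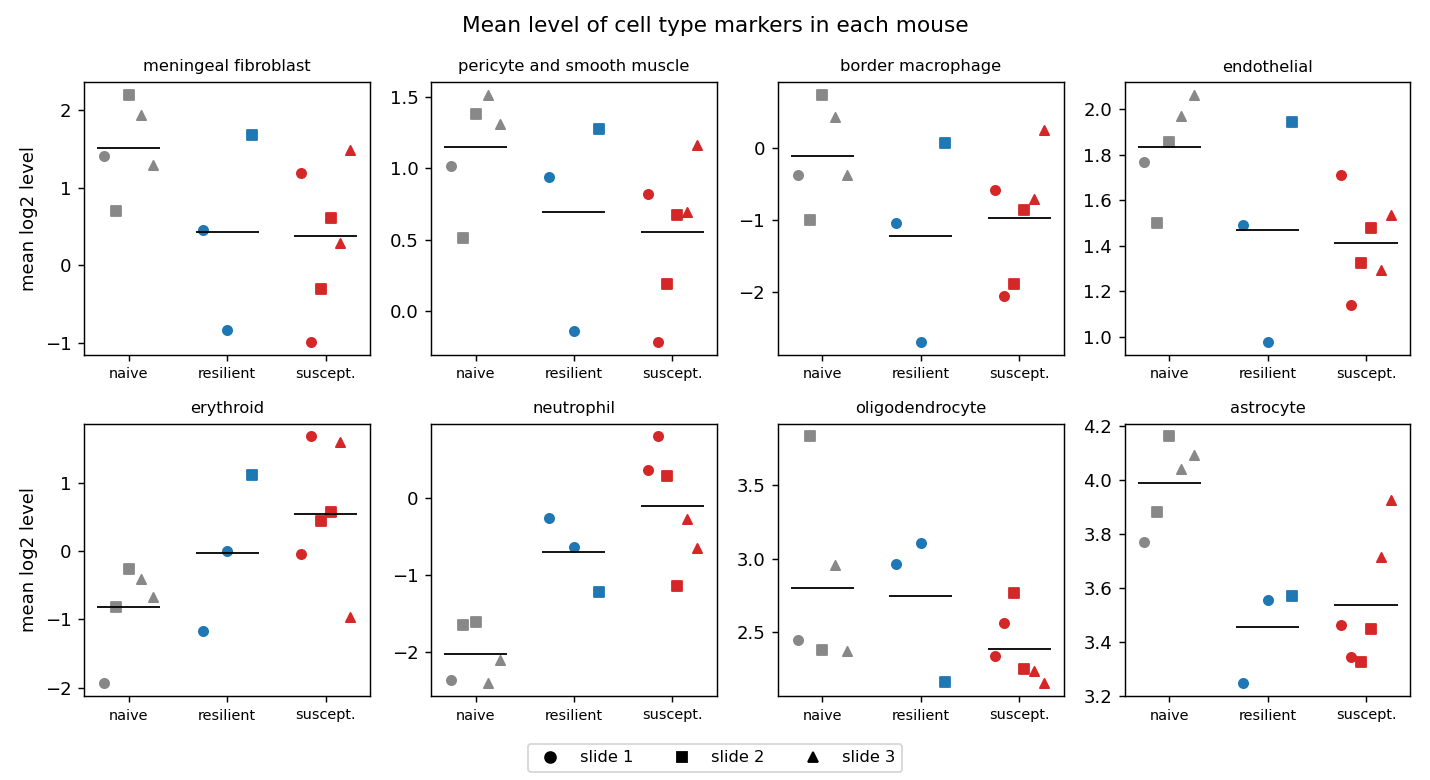
Mean log2 level of the tested markers of 8 cell types in every mouse, by group (naive grey, resilient blue, susceptible red), with the slide as symbol and the group mean as a line. Meningeal fibroblast levels span -1.00 to 1.48 in susceptible and -0.83 to 1.67 in resilient mice, and neutrophil marker levels overlap between the defeated groups.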

How the data were processed

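RNA of single mice was hybridised in 1 colour to an Agilent array (design 028005), and the deposited scanner files hold spot intensities processed by Agilent Feature Extraction 11.0.1.1, per the file headers. The authors also deposited a table of log2 values; each column differed from the log2 processed signal by 1 constant per array, which puts its 75th percentile at 0 (column medians -3.08 to -2.73), and it served as an alternative. Scale is log2 signal, genes were not centred and direction is that of signal.

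Control spots (ControlType other than 0) and outlier spots were left out. Then log2 was taken, the log2 values of a probe's spots were averaged and arrays were scaled to a common 75th percentile of 0. A probe was tested when well above background on all arrays of a group (29754 of 55681 probes); the brightest probe stood for a gene. Names came from accessions matched without versions to a RefSeq table of GRCm38.p6 (27509 probes, 20887 genes), used for names and for the promoter windows only, as the headers name an older build. This left 14423 genes, and 2 were left out for outlier spots. The number of arrays limits the precision.

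Susceptible and resilient arrays were compared in limma 3.58.1 (R 4.3.3; lmFit, eBayes) with slide as a fixed block, 5 residual degrees of freedom and 9.17 after moderation. Benjamini-Hochberg adjustment ran over all genes, with calls at adjusted p under 0.05. The code was tested on simulated data. Families were described by counts and medians beside those of all genes, with no test of a list. Named genes were, per direction, the 10 with the smallest p (none passed), the 2 members of each family with the smallest p, of which some are given only in a family's count, and 18 fixed names; further family members named have an unadjusted p under 0.05 or stand beside S100a8 and S100a9 as markers. Erich1 and P2rx5 were named after their values were seen. The members and lists were chosen with earlier results of these data known.

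Alternatives covered normalisation, background correction, filters, probe choice, slide and scan day, the samples fitted, a replicate block, array brightness, the variance model and leaving out each mouse. Fits with the meningeal or the erythroid marker level as a covariate, and scaling on probes detected on all 9 arrays, were added after the data were seen.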

Additional observations from a re-analysis of the deposited data

Results flagged for a closer look

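Among 137 sets of 6 susceptible values, for named genes and family levels, 3 had 1 mouse farther from the rest than the critical ratio of Dixon's test for 6 samples (0.625), and chance gives about 5% of such sets. Gbp2 stood at -0.29 in susceptible mouse 6, with the other susceptible mice between -2.81 and -2.02. Syn2, a synaptic vesicle phosphoprotein, stood at 7.02 in susceptible mouse 4, with the others between 6.51 and 6.69. Tmem52 stood at -2.88 in susceptible mouse 6, with the others between -1.97 and -1.61. The groups of 3 resilient mice were not tested in this way.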

How the results depend on the processing

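Of 33 alternatives, 30 gave 0 calls. The exceptions were 19 calls (3 higher, 16 lower) with the median of each array's detected probes subtracted, 196 calls (32 higher, 164 lower) within slide 2 and 1 call without resilient mouse 1; the range when single mice were left out was 0 to 1. Both of the larger counts came from fits whose prior degrees of freedom were infinite, so that all genes shared 1 spread, and slide 2 holds 1 resilient mouse, which is assumed to vary like the others. Scaling on probes detected on all 9 arrays gave 0 calls and 374 genes at an unadjusted p under 0.05. That count, 379 as reported, was 248 with the detected-probe median, 195 with normexp correction, 161 without the slide block, 202 with slide as a random block, 104 over all 14 arrays without a block, 869 with array weights, 869 without susceptible mouse 1, 775 without resilient mouse 2 and 789 within slide 2; the cause was not tested. The number of genes with an interval within 2-fold was 14027 and ranged from 13766 to 14034 when single mice were left out. The deviations of same-numbered mice from their group means correlated at 0.25, 0.36 and -0.37. Same-numbered susceptible and resilient mice shared a slide, so these values cannot decide whether replicate numbers pair the mice. A replicate block in place of slide gave 0 calls and 391 genes at an unadjusted p under 0.05. Array brightness differed by 0.18 over all arrays and by -0.11 after each slide's mean was removed. Spots above background differed by -0.47 and -1.51 percentage points in the same 2 ways. Of 91 named genes tested, 67 kept their sign under every alternative. Over the alternatives, the interferon median ranged from -0.62 to 0.08 and the acute-phase median from -0.53 to 0.38.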

Other observations

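The strongest axis of variation among the 9 defeated mice, after each slide's mean was removed, held 37.6% of the variance. Its scores were 14.9, -12.2, -22.0, 1.42, -6.02 and 6.02 in susceptible mice 1 to 6 and 12.1, -14.7 and 20.6 in resilient mice 1 to 3. On slide 1 each class held a high and a low score, and on slide 2 resilient mouse 3 scored above both susceptible mice. With slide means removed, the axis can order the classes only within a slide. At its high end stood genes of the brain's coverings and vessels, among them Slc13a4, Ptgds, Aebp1, Col1a1 and Ogn. At its low end stood Foxp2, a transcription factor of deep cortical layers, Mobp, a myelin protein, Hbb-bs, a globin chain, and S100a8 and S100a9. All 23 interferon response genes tested had positive weights on this axis, 13 of them among the highest 5% of genes. Of the 15 genes 2-fold or more lower in susceptible mice, 8 were among its 25 highest genes, out of 14423 tested. The axis and the differences come from the same arrays, so this overlap is no separate support for either.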
